A study of Homo sapiens with 12 samples.

Results

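The genes described are 10 enzymes that reduce or oxidize anthracyclines: CBR1, CBR3, AKR1A1, AKR1B10, AKR1C1, AKR1C2, AKR1C3, NQO1, POR and XDH. They were chosen as listed symbols, and each matched 1 of the 60660 gene identifiers of the count table. RNA was sequenced from 12 samples labelled HS578T, the name of a line of triple-negative breast cancer cells. The cells were kept for 48 h in DMSO as the vehicle or in doxorubicin, a drug of the anthracycline class that traps topoisomerase on DNA. The 4 groups of 3 libraries were cells labelled 17p-intact (titled Cas9, genotype WT) in DMSO, the same cells in 170 nM doxorubicin, cells labelled as lacking 1 copy of the short arm of chromosome 17 (titled 17PKO) in DMSO, and the latter in 1 µM doxorubicin (the labels write the unit of this dose as a length, read here as µM). Below they are called intact and deleted cells, as the labels name them. Dose and genotype differ together between the treated groups, so their effects cannot be told apart in any comparison of those groups or of the doxorubicin effects.

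Doxorubicin carries a quinone ring and a side chain with a ketone, and the enzymes fall into classes by which of these they act on. Carbonyl reductases (CBR1, CBR3) and aldo-keto reductases (AKR1A1, AKR1B10, AKR1C1 to AKR1C3) use NADPH to turn the ketone into an alcohol, which gives doxorubicinol, a metabolite that binds DNA less well and is linked to cardiac toxicity. NQO1 passes electrons to quinones in pairs, whereas POR, the electron donor of microsomal cytochromes P450, can pass a single electron to the quinone and give a semiquinone radical that cycles with oxygen. XDH, the xanthine dehydrogenase and oxidase of purine breakdown, can do the same. NQO1 and several of the aldo-keto reductase genes are classical targets of NRF2, the transcription factor of the antioxidant response.

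Total counts ran from 66150539 to 99142099 per library, and levels are given as CPM, counts scaled to a library total of 1000000; the floor of 3 counts that a count of 0 allows came to 0.0303 to 0.0454 CPM, for counting error only. POLR2A, which lies on 17p and codes for the catalytic subunit of RNA polymerase II, was at 494, 539 and 439 CPM in the intact and 555, 730 and 500 CPM in the deleted DMSO libraries, and at 807, 596 and 654 CPM against 735, 746 and 783 CPM in doxorubicin. Its log2 fold change was 0.32, SE 0.16 in DMSO (adjusted p = 0.151 by edgeR) and 0.05, SE 0.16 in doxorubicin (adjusted p = 0.818 by edgeR). Over 399 tested genes of 17p the median was -0.12 in DMSO, against 0.04 for other genes. In doxorubicin it was -0.04 against 0.02. POLR2A was thus not lower in the cells labelled deleted. The 17p genes were lower by a small margin only, so transcript levels did not follow the labelled loss of 1 copy. Transcripts specific to certain chromosomes differed from what the line's recorded karyotype gives in 12 of 12 libraries. The labelled identity of the cells was therefore not borne out by these transcripts, and the reason was not tested. The 6 mesenchymal markers summed to 8440 to 8990 CPM in intact DMSO and 7040 to 7240 in intact doxorubicin cells. In deleted cells they summed to 5770 to 6200 in DMSO and 3750 to 3790 in doxorubicin, with no overlap between the 4 groups. By edgeR 4 of the 6 were lower in deleted DMSO cells, while ZEB1 (-0.01) and CDH2 (-0.11) did not pass. With doxorubicin 0 of the 6 passed in intact cells and 4 were lower in deleted cells. Over all genes 16.2% were lower in deleted DMSO cells, 0.0596% passed in intact and 13.1% fell in deleted cells with doxorubicin. The part of the marker shift in the results below was not tested. The blood (5 genes), endothelial (3 genes) and liver (3 genes) markers summed to at most 1.71 CPM in any library. Of 6 epithelial markers, summed at 361 to 640 CPM, the keratins KRT8 and KRT18 were abundant, at 318 and 182 CPM in intact DMSO cells, while EPCAM and CDH1 had group means of at most 0.322 CPM. Mitochondrial transcripts took 6.9% of counts in replicate 2 of deleted DMSO and 5.54% in replicate 1 of intact doxorubicin, against 2.61% to 3.57% elsewhere. The treatment itself left unequal marks. CDKN1A, the p21 cell cycle inhibitor gene, rose by 4.08 (log2, SE 0.19) in deleted cells at 1 µM. In intact cells at 170 nM it was at 0.21, SE 0.17 (adjusted p = 0.668 by edgeR). MDM2, a further marker of the drug, was at 3.43, SE 0.15 in deleted cells and 0.09, SE 0.14 in intact cells. TOP2A, a topoisomerase gene, fell by 0.63 (SE 0.09) in deleted cells. In intact cells TOP2A was at 0.52, SE 0.09, close to the threshold of 0.05 without passing it (adjusted p = 0.0588 by edgeR).

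RefSeq promoter windows (GRCh38.p14, 250 bases before to 50 after the gene start) were at hand for 7 of the 10 genes: CBR1, AKR1A1, AKR1C1, AKR1C2, AKR1C3, NQO1 and XDH. The bases just upstream of 4 of them are shown. XDH is among the genes that moved most, and AKR1C1 and AKR1C2 are much alike, with AKR1C3 given beside them. Each sequence runs 5′ to 3′ and ends at the base before the start, and capitals mark matches, on either strand, to a CCAAT box (CCAAT) or an antioxidant response element (TGACNNNGC).
XDH (chr2:31414743-31414992, minus strand): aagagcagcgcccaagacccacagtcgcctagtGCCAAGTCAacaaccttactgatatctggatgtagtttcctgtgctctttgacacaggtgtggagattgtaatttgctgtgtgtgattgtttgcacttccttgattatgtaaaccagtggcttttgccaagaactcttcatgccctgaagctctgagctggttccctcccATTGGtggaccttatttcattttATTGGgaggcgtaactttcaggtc
AKR1C1 (chr10:4963265-4963414, plus strand): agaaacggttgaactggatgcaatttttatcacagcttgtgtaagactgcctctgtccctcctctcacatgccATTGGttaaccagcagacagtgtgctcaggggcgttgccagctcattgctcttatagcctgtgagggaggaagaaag
AKR1C2 (chr10:5003858-5004007, minus strand): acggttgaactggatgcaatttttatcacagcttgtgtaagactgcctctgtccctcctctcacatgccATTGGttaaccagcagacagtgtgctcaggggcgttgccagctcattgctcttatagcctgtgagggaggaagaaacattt
AKR1C3 (chr10:5048631-5048780, plus strand): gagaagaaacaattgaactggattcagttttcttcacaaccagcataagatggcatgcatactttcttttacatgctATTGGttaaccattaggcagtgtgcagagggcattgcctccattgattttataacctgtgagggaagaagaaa

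Over 246 aligned upstream bases AKR1C1 and AKR1C2 were identical at 245, or 99.6%, while AKR1C1 and this window of AKR1C3 shared 185 of 241, or 76.8%. All 3 AKR1C windows hold a CCAAT box on the opposite strand, with its first base 73 to 81 bases before the start (AKR1C3 has a further window in RefSeq, which holds one too). XDH holds 2 CCAAT boxes and 1 antioxidant response element, and CBR1 also holds 1 such element. Among all 35116 windows of this length 34.6% hold a CCAAT box and 13.3% an antioxidant response element, so these matches are common. AP-1 sites (TGANTCA), interferon-stimulated response elements, NF-kB sites and p53 half-sites were searched on both strands as well; they occur in 7.71%, 3.57%, 5.91% and 6.63% of all windows and had no match in the windows of these genes. Matches are descriptions of letters and not of binding. Only these windows were searched, so sites farther from the start, for NQO1 or any other gene, would not be seen.

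Transcript levels spanned several orders of magnitude. On the scale of RPKM, here CPM divided by the exon length in kilobases from GENCODE 29, NQO1 was the most abundant in intact DMSO cells at 69 ± 3.67 (SD, n = 3). CBR1 at 18.4 ± 0.844 and AKR1A1 at 17.2 ± 0.879 came next and overlapped, followed by POR at 9.61 ± 0.393 and CBR3 at 8.31 ± 0.158. XDH was at 0.77 ± 0.0192 RPKM, AKR1C3 at 0.374 ± 0.0177, AKR1B10 at 0.253 ± 0.103, AKR1C1 at 0.0328 ± 0.00673 and AKR1C2 at 0.00333 ± 0.00116. In intact cells, therefore, the aldo-keto reductase AKR1A1 and the carbonyl reductase CBR1 stood at about the same level on this scale. Each AKR1C gene was under 1 RPKM. The exon length counts all annotated exons of a gene (2450 bases for CBR1, 3121 for AKR1A1), so the order between genes depends on the annotation. In deleted DMSO cells the order changed: CBR1 led at 24.3 ± 2.6 RPKM, above NQO1 at 14.1 ± 1.69 and CBR3 at 12.5 ± 0.727, which overlapped each other, and AKR1A1 stood at 6.88 ± 1.93 RPKM. In deleted cells with doxorubicin AKR1B10, at 6.05 ± 0.0951 RPKM, had come close to AKR1A1, at 6.72 ± 0.223 RPKM, and XDH was at 4.32 ± 0.00582 RPKM.

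**Figure D1:**
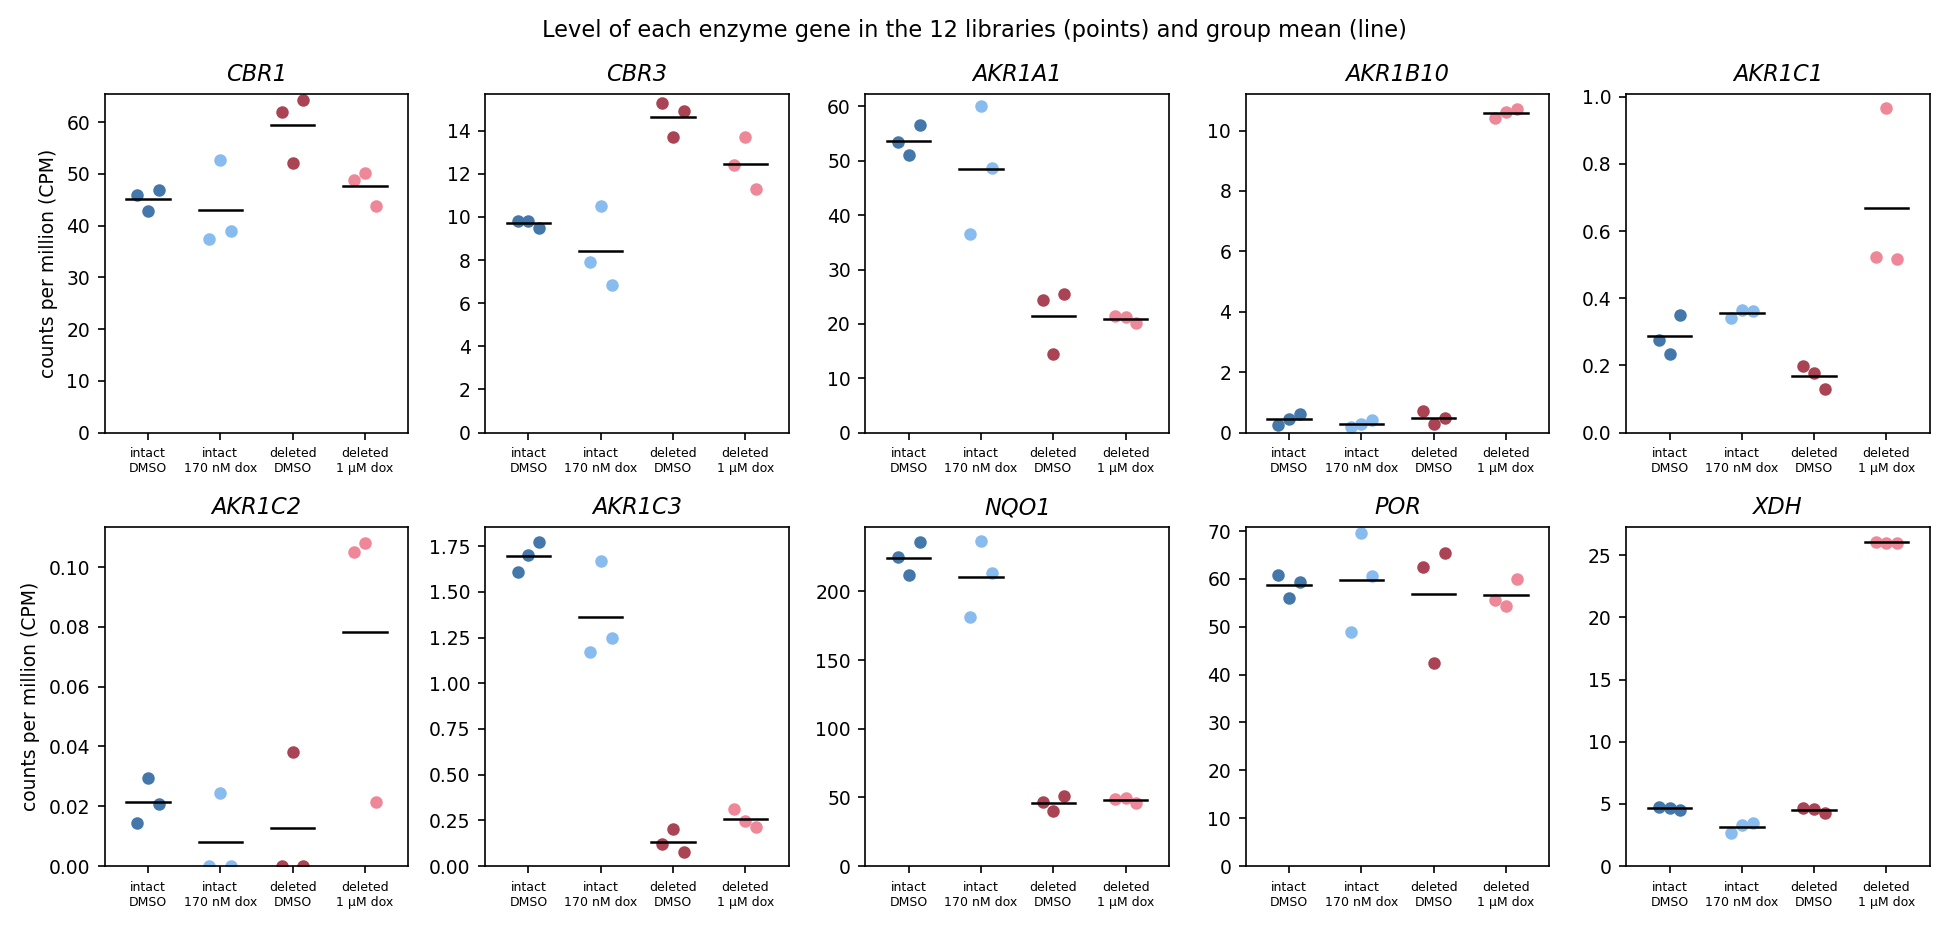
Level of each of the 10 genes in CPM (vertical axes from 0, each with its own scale) in the 12 libraries, by group; points are libraries in the order of their replicate numbers and lines are group means. AKR1B10 and XDH stand apart in deleted cells with 1 µM doxorubicin, at 10.4 to 10.7 and 26 to 26.1 CPM, while NQO1, AKR1A1 and AKR1C3 split by cell population.

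The first comparison asked what 1 µM doxorubicin changed in deleted cells. XDH and AKR1B10 rose, AKR1C1 rose from a very low level, and CBR1 fell slightly. NQO1, POR, AKR1A1, CBR3 and AKR1C3 did not pass the threshold of an adjusted p under 0.05. Of the 10 genes 9 were tested, with 3 higher and 1 lower; over all 21803 genes tested 30.7% were called, 17.5% higher and 13.1% lower. The median log2 fold change of the 9 was 0.03 and that of all genes -0.02.

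XDH, the purine oxidase, was at 4.69, 4.57 and 4.27 CPM in the deleted DMSO libraries and at 26.1, 26 and 26 CPM in the treated ones. The groups did not overlap, and the 3 treated libraries lay within a range of well under 1 CPM. The log2 fold change was 2.49, SE 0.12, or 5.62-fold (adjusted p = 3.61e-09 by edgeR; higher in 3 of 3 treated libraries). XDH (ENSG00000158125.10) lies on chromosome 2 at 31334321 to 31414715 (hg38, GENCODE 29), minus strand.

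AKR1B10, an aldo-keto reductase of retinal, lipid aldehydes and anthracyclines, was nearly silent in deleted DMSO cells, at 0.726, 0.279 and 0.483 CPM (48, 22 and 37 counts). In 1 µM doxorubicin it was at 10.4, 10.6 and 10.7 CPM, with no overlap. The log2 fold change was 4.4, SE 0.32, or 21-fold (adjusted p = 2.06e-07 by edgeR). The gene (ENSG00000198074.10) lies on chromosome 7 at 134527592 to 134541408. Its paralog AKR1B15, with which 1.14% of the 100-base windows of its longest transcript are shared, had 3 to 6 counts in the deleted DMSO and 16 to 41 in the treated libraries, while AKR1B1, the aldose reductase gene nearby, was at 91.6 ± 27.2 and 97.2 ± 14.4 CPM (log2 fold change 0.06, SE 0.21, adjusted p = 0.856 by edgeR).

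AKR1C1, a reductase of steroids and of other carbonyls, had 13, 14 and 10 counts in the deleted DMSO and 40, 90 and 48 in the treated libraries, or 0.131 to 0.197 against 0.517 to 0.968 CPM. The groups did not overlap, and replicate 2 of the treated group was the highest. The log2 fold change was 1.95, SE 0.37 (adjusted p = 0.00108 by edgeR). AKR1C2 had 0 to 3 counts in each of the other 9 libraries and 8, 10 and 2 in the treated deleted ones, too few to be tested. AKR1C1 and AKR1C2 share 1136 windows of 100 bases, 17.2% of those in the longest AKR1C1 transcript and 31.1% in that of AKR1C2, and how reads with several matches were counted is not given in the sources used here, so these 2 genes are uncertain with respect to each other. AKR1C3, the isoform that also makes androgens and prostaglandin F, was at 0.121, 0.203 and 0.0784 CPM in DMSO and 0.314, 0.247 and 0.215 CPM in doxorubicin (log2 fold change 0.88, SE 0.35, adjusted p = 0.0785 by edgeR). The groups did not overlap. Without replicate 2 of deleted DMSO, the library with the highest mitochondrial share, AKR1C3 was at 1.36 (adjusted p = 0.0129 by edgeR), and with the GC trend removed it passed as well, at 0.96 (adjusted p = 0.045).

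CBR1, the main cytosolic carbonyl reductase, was at 62, 52.2 and 64.2 CPM in deleted DMSO and 48.8, 50.2 and 43.8 CPM in treated cells. Each treated library was below each DMSO library. The fall of 0.35 on the log2 scale (SE 0.12, adjusted p = 0.0333 by edgeR) was small and lost its call without any 1 of the treated libraries, without replicate 1 or 3 of deleted DMSO or replicate 1 of intact DMSO, and with library totals as the scaling (adjusted p up to 0.133 by edgeR). CBR3, its paralog, was at 15.3, 13.7 and 14.9 against 12.4, 13.7 and 11.3 CPM, with a log2 fold change of -0.27, SE 0.14 (adjusted p = 0.154 by edgeR), and passed at -0.38 (adjusted p = 0.0294) with the GC trend removed.

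NQO1, POR and AKR1A1, all well expressed, gave intervals around 0. For NQO1, at 46.6, 40.1 and 51.1 CPM in DMSO and 48.7, 49.3 and 45.6 CPM in doxorubicin, the log2 fold change was 0.03 (95% interval -0.16 to 0.22). POR was at 62.5, 42.5 and 65.4 CPM in DMSO and 55.6, 54.3 and 59.9 CPM in doxorubicin, with -0.03 (95% interval -0.29 to 0.23). AKR1A1, which reduces aldehydes, was at 24.4, 14.5 and 25.5 CPM in DMSO and 21.5, 21.2 and 20.2 CPM in doxorubicin, with -0.06 (95% interval -0.40 to 0.28). In NQO1, POR and AKR1A1 the lowest DMSO library was replicate 2, the library with the highest mitochondrial share. The same held for CBR1, CBR3 and AKR1B10, but not for XDH or the AKR1C genes.

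In intact cells, 170 nM doxorubicin left 0 of the 9 tested genes past the threshold by edgeR, and 1 of them, XDH, had an unadjusted p under 0.05; over all genes 0.0596% were called, 0.0275% higher and 0.0321% lower. XDH was at 4.74, 4.69 and 4.51 CPM in DMSO and at 2.67, 3.29 and 3.45 CPM in doxorubicin, lower in each treated library. Its log2 fold change was -0.49, SE 0.12 (adjusted p = 0.13 by edgeR), and with DESeq2 it passed, at -0.49 (adjusted p = 0.00708). It also passed with each library's trend in GC content removed (-0.50, adjusted p = 0.0293 by edgeR), and limma-voom called none of the genes. AKR1B10 was at 0.261, 0.441 and 0.62 CPM in DMSO and 0.195, 0.293 and 0.403 CPM in doxorubicin (-0.50, SE 0.35, adjusted p = 0.611 by edgeR), so the libraries overlapped. NQO1 was at 225, 212 and 236 CPM in DMSO and 181, 237 and 213 CPM in doxorubicin (-0.02, 95% interval -0.21 to 0.17). CBR1 was at 45.9, 42.9 and 46.8 CPM in DMSO and 37.4, 52.7 and 38.9 CPM in doxorubicin, with replicate 2 of the treated group the highest and a log2 fold change of 0.00 (95% interval -0.23 to 0.23).

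The difference of the doxorubicin effects, deleted less intact, was past the threshold for 3 of the 9 genes, all higher in deleted cells; 17% of all genes were called, 10.3% higher and 6.74% lower. For XDH it was 2.98, SE 0.16 (adjusted p = 7.88e-08 by edgeR) and for AKR1B10 4.90, SE 0.47 (adjusted p = 8.20e-06 by edgeR). For AKR1C1 it was 1.57, SE 0.51 (adjusted p = 0.0486 by edgeR), just past the threshold, and the call was lost when any 1 of the 12 libraries was left out (adjusted p = 0.0524 to 0.132 by edgeR). AKR1C3 did not pass, at 1.12, SE 0.44 (adjusted p = 0.105 by edgeR), and passed at 1.61 (adjusted p = 0.0199) without replicate 2 of deleted DMSO. CBR1 (-0.35, adjusted p = 0.166) and POR (-0.13, adjusted p = 0.708) passed at -0.49 (adjusted p = 0.039) and -0.39 (adjusted p = 0.0374) without the 2 libraries of highest mitochondrial share, and POR also with the GC trend removed (-0.32, adjusted p = 0.0194). Here the dose was 170 nM in one cell population and 1 µM in the other.

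**Figure D2:**
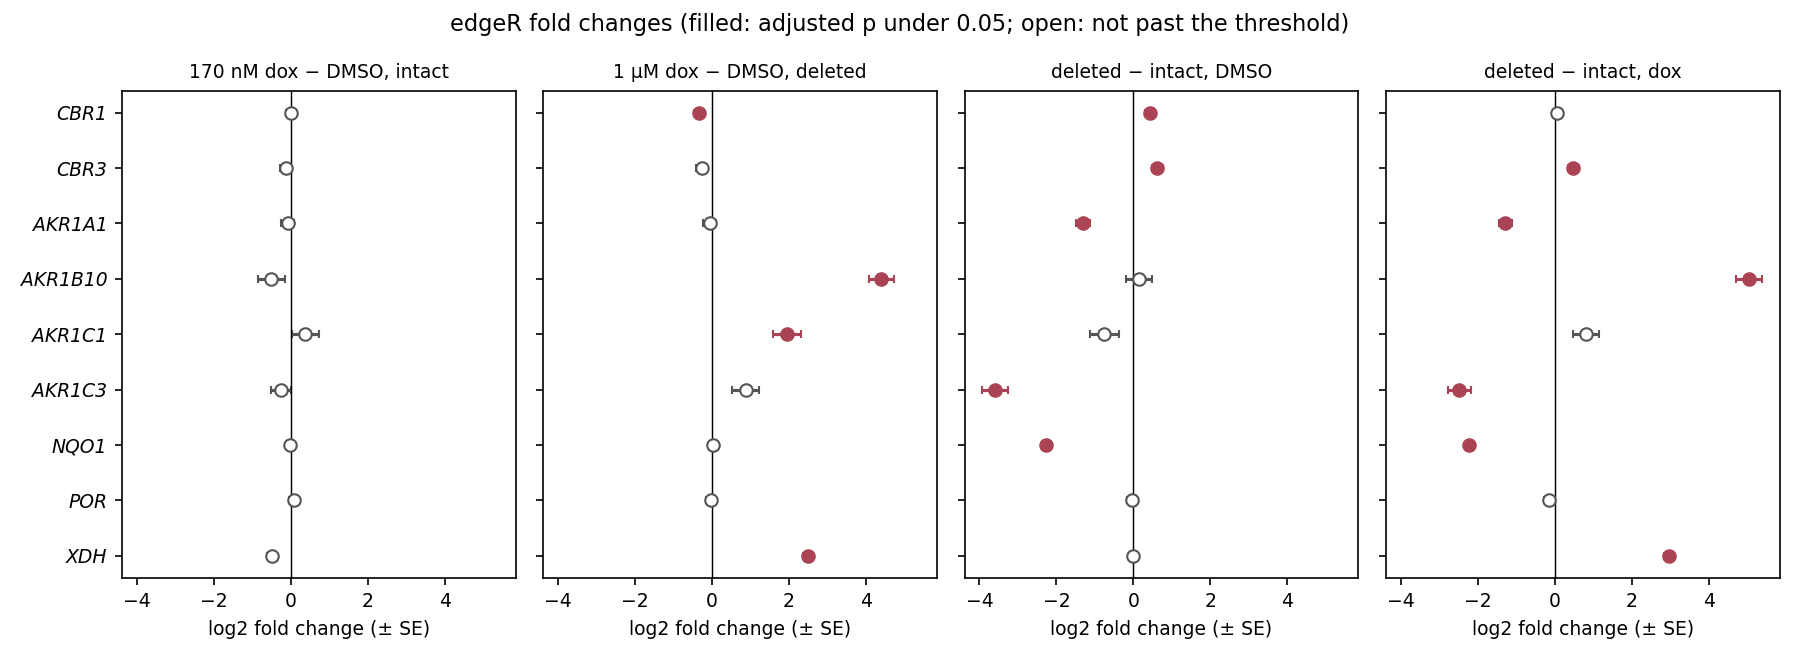
Log2 fold changes of the 9 tested genes in 4 comparisons by edgeR, with bars of 1 standard error on a common horizontal axis; filled points passed an adjusted p of 0.05 and open points did not. In intact cells no point is filled, and in deleted cells AKR1B10 (4.4), XDH (2.49) and AKR1C1 (1.95) lie to the right and CBR1 (-0.35) to the left.

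The next comparison asked how the 2 cell populations differed in DMSO, before any drug. NQO1, AKR1A1 and AKR1C3 were lower and CBR1 and CBR3 higher in deleted cells, while XDH, POR, AKR1B10 and AKR1C1 did not pass. Thus 2 of 9 tested genes were higher and 3 lower, against 34.9% called over all genes, 18.8% higher and 16.2% lower, with a median of -0.03 for the 9 and 0.04 for all. This comparison shares its deleted DMSO libraries with the doxorubicin effect in deleted cells.

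NQO1 was at 225, 212 and 236 CPM in intact and 46.6, 40.1 and 51.1 CPM in deleted DMSO libraries. Every deleted library was below every intact one, and the log2 fold change was -2.26, SE 0.10, or 4.80-fold lower (adjusted p = 4.97e-09 by edgeR). The gene (ENSG00000181019.13) lies on chromosome 16 at 69706996 to 69726951, minus strand. In the treated groups, at 181 to 237 and 45.6 to 49.3 CPM, the log2 fold change was -2.22, SE 0.10 (adjusted p = 1.59e-09 by edgeR).

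AKR1A1 was at 53.5, 51.1 and 56.5 CPM in intact and 24.4, 14.5 and 25.5 CPM in deleted DMSO libraries, with no overlap and replicate 2 of the deleted group the lowest. The log2 fold change was -1.31, SE 0.18 (adjusted p = 7.06e-05 by edgeR), and -1.28, SE 0.18 (adjusted p = 4.01e-05) in doxorubicin. AKR1C3 was at 1.61, 1.70 and 1.77 CPM (111, 116 and 171 counts) in intact and at 0.121, 0.203 and 0.0784 CPM (8, 16 and 6 counts) in deleted DMSO libraries. Its log2 fold change was -3.59, SE 0.33, or 12.1-fold lower (adjusted p = 2.48e-06 by edgeR), and -2.48, SE 0.30 (adjusted p = 1.25e-05) in doxorubicin. AKR1C1, its neighbour on chromosome 10, was at 0.275, 0.235 and 0.351 CPM in intact and 0.197, 0.178 and 0.131 CPM in deleted DMSO cells (-0.75, SE 0.38, adjusted p = 0.145 by edgeR).

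CBR1 was at 45.9, 42.9 and 46.8 CPM in intact and 62, 52.2 and 64.2 CPM in deleted DMSO libraries, with no overlap (log2 fold change 0.42, SE 0.12, adjusted p = 0.0125 by edgeR). Without replicate 2 of intact DMSO the adjusted p was 0.0985. CBR3 was at 9.83, 9.81 and 9.5 CPM in intact and 15.3, 13.7 and 14.9 CPM in deleted libraries (0.62, SE 0.14, adjusted p = 0.00318 by edgeR). In doxorubicin CBR3 was still higher in deleted cells (0.48, SE 0.14, adjusted p = 0.0101 by edgeR; 0.37 and adjusted p = 0.071 without replicate 2 of treated deleted cells), while CBR1 was at 0.07, SE 0.12 (adjusted p = 0.666 by edgeR).

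Both carbonyl reductase genes lie on chromosome 21, CBR1 at 36069941 to 36073166 and CBR3 at 36134912 to 36146566, plus strand, with starts 65 kb apart. Of 228 other tested genes of chromosome 21, 111 were higher and 13 lower in deleted DMSO cells, and the median log2 fold change was 0.60. Of 21 other tested genes that start within 1 Mb of either reductase 12 were higher, 1 was lower and the median was 0.73, where 18.8% of all genes were higher and 16.2% lower. Among them were SIM2, a transcription factor gene (2.71, SE 0.13), and CHAF1B, a chromatin assembly factor gene (0.78, SE 0.09). LINC01436 was higher as well (5.44, SE 0.43), from a low level of 0.0747 CPM in intact to 3.03 CPM in deleted cells. The 1 that was lower was DOP1B (-0.35, SE 0.10). The values of CBR1 and CBR3 thus lay below and near the median of their chromosome; no test was made of the chromosome against others. On the opposite strand CBR1-AS1 shares exon bases with CBR1 and was at 0.143 CPM in intact and 0.192 CPM in deleted DMSO cells, and CBR3-AS1 shares exon bases with CBR3 and was at 2.86 and 1.98 CPM. The strand setting of the counting is not given in the sources used here, so reads of these partners cannot be told apart from those of the reductases where exons overlap; the same holds for POR and TMEM120A, which was at 11.5 and 13.4 CPM. SETD4, at 9.3 and 14.3 CPM, overlaps the body of CBR1 on the opposite strand but none of its exons.

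**Figure D3:**
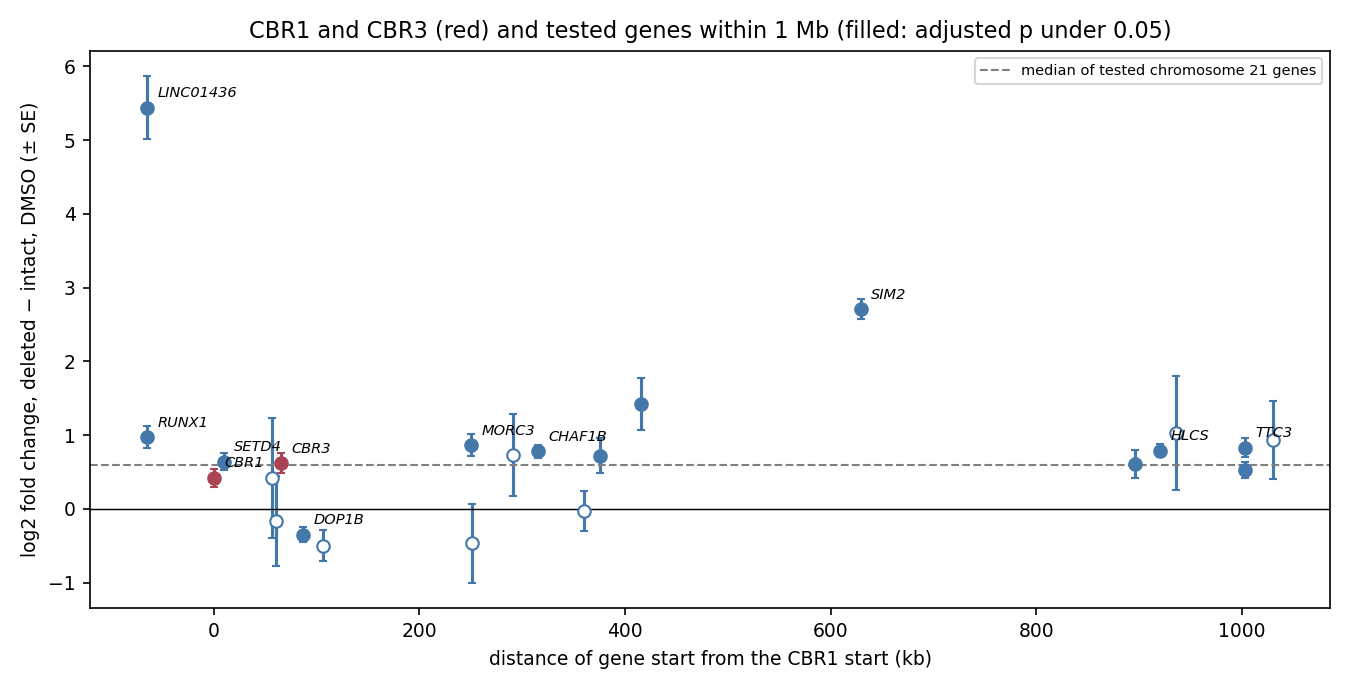
Log2 fold change (vertical axis, with bars of 1 standard error) between deleted and intact DMSO cells for CBR1, CBR3 and 21 other tested genes within 1 Mb, by the distance of their starts from that of CBR1 in kilobases; filled points passed an adjusted p of 0.05. CBR1 (0.42) and CBR3 (0.62) lie near the dashed median of chromosome 21 (0.60), and 14 of the 15 filled points are above 0.

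Some of the genes differed little between the populations in DMSO. XDH was at 4.74, 4.69 and 4.51 CPM in intact and 4.69, 4.57 and 4.27 CPM in deleted cells, with a log2 fold change of -0.01 (95% interval -0.24 to 0.21). POR was at 60.8, 56.1 and 59.4 CPM in intact and 62.5, 42.5 and 65.4 CPM in deleted cells, with -0.03 (95% interval -0.29 to 0.23). AKR1B10 was at 0.261 to 0.62 CPM in intact and 0.279 to 0.726 CPM in deleted cells, with 0.15 (95% interval -0.52 to 0.81), a wide interval at these counts.

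Between the treated groups, which differ in dose as well, XDH and AKR1B10 were higher in deleted cells at 1 µM. Of the 9 tested genes 3 were higher (XDH, AKR1B10 and CBR3) and 3 lower (NQO1, AKR1A1 and AKR1C3), against 47.8% of all genes called, 25.9% higher and 21.9% lower. XDH was at 2.67, 3.29 and 3.45 CPM in intact and 26.1, 26 and 26 CPM in deleted cells, a log2 fold change of 2.97, SE 0.12 (adjusted p = 4.90e-10 by edgeR). AKR1B10 was at 0.195, 0.293 and 0.403 against 10.4, 10.6 and 10.7 CPM, a log2 fold change of 5.05, SE 0.33 (adjusted p = 4.30e-08 by edgeR). AKR1C1, at 0.342, 0.366 and 0.363 CPM in intact and 0.523, 0.968 and 0.517 CPM in deleted cells, did not overlap between the groups and did not pass, at 0.82, SE 0.34 (adjusted p = 0.0595 by edgeR). It passed with library totals (0.91, adjusted p = 0.0386) and with the GC trend removed (0.87, adjusted p = 0.0446). POR did not pass, at -0.16, SE 0.13 (adjusted p = 0.358 by edgeR), and passed at -0.23 (adjusted p = 0.00699) with the GC trend removed and at -0.31 (adjusted p = 0.00731) without the 2 libraries of highest mitochondrial share.

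Other enzymes of the same chemistry were counted in the same fit. Of 14 further carbonyl reducers 11 were tested, and 3 rose and 0 fell in deleted cells with doxorubicin, with a median of 0.24; over all genes 17.5% were higher and 13.1% lower, so the count of calls was near that background. They were DHRS7, a short-chain dehydrogenase gene (49.4 to 85.7 CPM, log2 fold change 0.75, SE 0.13), AKR1D1, the steroid 5-beta-reductase gene, with 2 to 6 counts in DMSO and 66 to 98 in doxorubicin, and AKR1B15. In DMSO 2 were higher and 1 lower in deleted cells, with a median of -0.19, beside 18.8% and 16.2% of all genes: DHRS2 was at 8.56 ± 1.16 CPM in intact and 29.8 ± 0.221 CPM in deleted cells (1.83, SE 0.12), DHRS7 was at 0.49, SE 0.13, and AKR1B1, the aldose reductase gene, went from 276 ± 5.59 to 91.6 ± 27.2 CPM (-1.58, SE 0.21). AKR1B1 was thus lower in deleted cells in DMSO and, as given above, did not pass in deleted cells with doxorubicin.

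Of 14 other flavin and thiol reductases that can donate electrons 11 were tested, with 2 higher and 1 lower in deleted cells with doxorubicin and a median of 0.17, again near the 17.5% and 13.1% over all genes. FDXR, the mitochondrial ferredoxin reductase gene, rose from 21.3 ± 6.3 to 119 ± 8.56 CPM (2.46, SE 0.18) and NDOR1 by 0.57, SE 0.19, while TXNRD1, the cytosolic thioredoxin reductase gene, fell from 744 ± 6.27 to 404 ± 4.69 CPM (-0.92, SE 0.08). CYB5R3, the cytochrome b5 reductase gene and the most abundant that did not pass, was at 0.05, SE 0.08. In DMSO 2 were higher and 2 lower in deleted cells, beside 18.8% and 16.2% of all genes, and the median was 0.11: CYB5R3 was at 0.41, SE 0.08 and AOX1, aldehyde oxidase, at 0.27, SE 0.10, and MTRR, methionine synthase reductase, was at -0.56, SE 0.10 and GSR, glutathione reductase, at -0.38, SE 0.08. In intact cells with 170 nM doxorubicin 0 genes of either list passed by edgeR, where only 0.0596% of all genes were called.

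NQO1 is a standard target of NRF2, and other genes of that pathway went in both directions. Of 15 other NRF2 targets, all tested, 5 were lower and 2 higher in deleted DMSO cells, with a median of -0.22, beside 16.2% lower and 18.8% higher over all genes. The lower ones were HMOX1, heme oxygenase (27.6 ± 1.9 to 7.69 ± 2.58 CPM, -1.83, SE 0.20), GCLM, the modifier subunit of glutamate-cysteine ligase (97.1 ± 2.8 to 34.6 ± 2.83 CPM, -1.45, SE 0.11), the ferritin heavy chain gene FTH1 (-1.44, SE 0.12), PRDX1 (-0.63) and ME1 (-0.53). GCLC, the catalytic subunit (0.51, SE 0.12), and SLC7A11, the cystine importer (0.77, SE 0.20), were higher. In deleted cells with doxorubicin 1 of the 15 rose, HMOX1 (1.25, SE 0.20), and 2 fell, TXNRD1 and SLC7A11 (-1.04, SE 0.20). Their median was -0.09, beside 17.5% higher and 13.1% lower over all genes. The 15 leave out the aldo-keto reductases among the 10 genes. Of those, AKR1B10 (4.4) and AKR1C1 (1.95) rose in the same comparison. AKR1A1 (-0.06) and AKR1C3 (0.88) did not pass, and AKR1C2 was not tested. Of 7 regulators of the pathway 4 were higher and 0 lower in deleted DMSO cells (18.8% and 16.2% over all genes), with a median of 0.41: MAFF (0.98, SE 0.12) and MAFK (0.58, SE 0.15), small MAF partners, BACH1, a repressor (0.91, SE 0.13), which lies on chromosome 21, and CUL3, a ubiquitin ligase scaffold (0.41, SE 0.14). With doxorubicin MAFF (1.62, SE 0.12), MAFK (1.01, SE 0.15) and BACH1 (0.49, SE 0.12) rose and CUL3 fell (-0.46, SE 0.14), so 3 of 7 were higher and 1 lower beside 17.5% and 13.1% of all genes. NFE2L2, which encodes NRF2, was at 197 ± 8.68 CPM in intact and 158 ± 19.1 CPM in deleted DMSO cells (-0.28, SE 0.11, adjusted p = 0.0751 by edgeR). With doxorubicin NFE2L2 was at 208 ± 13.2 CPM in intact and 159 ± 2.94 CPM in deleted cells. Between these treated groups, which differ in dose as well, it passed (-0.47, SE 0.11, adjusted p = 0.00349 by edgeR). AKR1B15, NDOR1, BACH1, CUL3 and SLC7A11 with doxorubicin, and DHRS7, AOX1, GSR, HMOX1, PRDX1, ME1, GCLC, SLC7A11, MAFK, CUL3, CHAF1B and DOP1B between the populations, were named after their values were seen.

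**Figure D4:**
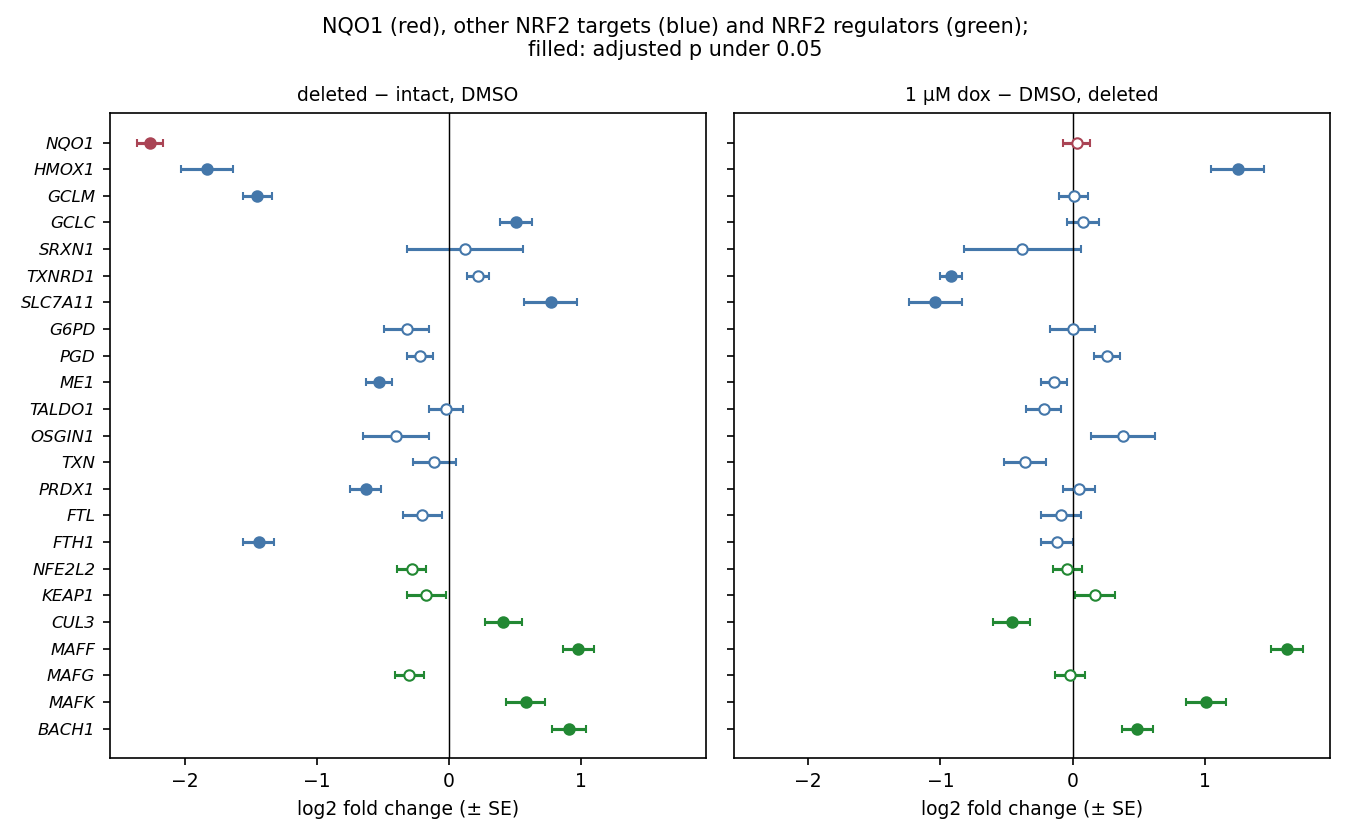
Log2 fold changes (horizontal axes, with bars of 1 standard error, by edgeR) of NQO1, 15 other NRF2 targets and 7 regulators between deleted and intact DMSO cells (left) and with 1 µM doxorubicin in deleted cells (right); filled points passed an adjusted p of 0.05. NQO1 is at -2.26 on the left and 0.03 on the right, where HMOX1 (1.25) is the target farthest above 0.

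Genes whose profile over the 12 libraries was nearest to each of the enzymes were found by the root mean square difference of centred log2(CPM + 1) values, among 10921 genes whose mean over the 12 libraries was at least 5 CPM. A gene high in 1 group only can pass this filter through that group, so the search favours such profiles and the names are a description only. Nearest to XDH was TNFAIP3, the A20 inhibitor of NF-kB, at 0.132, with group means of 32.8, 26.5, 33 and 170 CPM in intact DMSO, intact doxorubicin, deleted DMSO and deleted doxorubicin cells, followed by C7orf57 (0.154) and SPTBN5 (0.166), which were under 5 CPM in the other 3 groups and passed the filter through deleted cells with doxorubicin. Nearest to AKR1B10 were IL1A, the interleukin 1 alpha gene (0.156, with 1.68, 1.27, 1.42 and 19 CPM), KANK3 (0.182) and PADI3 (0.182), and these too were under 5 CPM in the other 3 groups and passed only through the treated deleted cells. Among the genes nearest to NQO1 were ADAM12 (0.187) and NRG1 (0.222). AKR1A1 was nearest to SCRN2 (0.098), RPS18 (0.117) and IFI27L2 (0.134). ADAM12 and IFI27L2 were under 5 CPM in the deleted groups and passed the filter only through the intact cells. AKR1C3 was nearest to THOC5 (0.114), TMEM51 (0.12) and SYTL2 (0.127). For AKR1C3 the added 1 CPM compresses the changes, since its own level is near that value. The same holds for AKR1B10, with group means of 0.297 to 0.496 CPM outside the treated deleted cells.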

How the data were processed

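Raw counts per gene, as deposited by the authors in 1 table of 12 libraries, were used; the submitters' processing notes name STAR 2.7.9a, the hg38 build and, for counting, featureCounts (Subread 2.0.1). Annotation release, strand and multi-mapping settings: not given in the sources used here. Positions and exon lengths came from GENCODE 29 and symbols were matched without the version of the identifier. Genes were filtered with filterByExpr (minimum count 10), scaled with TMM factors and tested with edgeR 4.0.16 under R 4.3.3 (quasi-likelihood, all 4 groups fitted together), with Benjamini-Hochberg adjustment over 21803 genes and a threshold of 0.05. The standard error is the log2 fold change divided by the root of F. The 95% intervals are 1.96 standard errors on either side, without allowance for the few libraries, so they are somewhat too narrow. For AKR1C1 between the populations in DMSO the interval was -1.49 to -0.01, while its unadjusted p was 0.0686 by edgeR. CPM is over library totals. Nothing in the labels says whether replicates were separate cultures: p-values rest on the spread between these samples alone, and that spread may be technical; pairs within groups differed by more than sampling noise (chi-square per degree of freedom 8.03 to 185). In bulk RNA fewer cells and less RNA per cell cannot be told apart.

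The genes and companion lists were chosen with earlier results of these data known. Names were taken by a rule: all 10 enzymes, up to 2 genes with the lowest p and the most abundant gene not past the threshold from each list and comparison (not all are named), and the 3 nearest profiles of each enzyme whose group means span at least 1 on the log2 scale (1 of these profiles is not reported here). Alternatives were RLE factors, library totals, no filter, 1 CPM in 3 libraries, DESeq2 1.42.0, limma-voom (limma 3.58.1), fits of the compared groups alone, a replicate block, loess offsets for transcript GC content (span 0.5, known for 98% of tested genes), a 2-fold change as well, and leaving out libraries. The fit was tested on simulated counts.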

Additional observations from a re-analysis of the deposited data

Results flagged for a closer look

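By a test of the difference in the edgeR fit, the doxorubicin effect differed between the cell populations for 3 of the 9 tested enzymes. Over all genes 17% were called, 10.3% higher and 6.74% lower. The dose was 170 nM in intact and 1 µM in deleted cells. The log2 difference was 4.90 for AKR1B10 (adjusted p = 8.20e-06), 2.98 for XDH (adjusted p = 7.88e-08) and 1.57 for AKR1C1 (adjusted p = 0.0486). For AKR1B10 and XDH it stayed past the threshold under all 23 alternatives, from 4.43 to 5.24 and from 2.89 to 3.09. For AKR1C1, with 10 to 90 counts a library, it stayed past the threshold under 6 of 22. Dose and genotype cannot be told apart in these values.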

How the results depend on the processing

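The directions and calls of NQO1, AKR1A1 and AKR1C3 between the populations, and of XDH and AKR1B10 with doxorubicin in deleted cells, were kept under all 24 alternatives, with AKR1C1 in deleted cells kept under the 23 that tested it; a required 2-fold change left them past the threshold. The replicate numbers did not pair the libraries: the correlation of same-numbered deviations was -0.22 to 0.12, over 0.1 in 1 of 18 pairs, and 4 of 12 libraries matched their own number best. Under the replicate block 0 of the enzymes fell with doxorubicin in deleted cells in place of 1 (CBR1, adjusted p = 0.0584), and AKR1C1 lost the difference of effects (adjusted p = 0.0821). The number of enzymes lower in deleted cells with doxorubicin was also 0 with library totals or a 2-fold change, 2 with GC offsets, with or without the block, and 0 to 1 with a library left out. In intact cells with doxorubicin the number lower was 1 with DESeq2 or GC offsets in place of 0. In DMSO the number higher in deleted cells was 0 with a 2-fold change, and 1 to 2 with a library left out. The number lower in the difference of effects was 1 with GC offsets, with or without the block, and 2 without the 2 libraries of highest mitochondrial share (CBR1 and POR), in place of 0. Calls gained by single enzymes stand beside their results, except that with GC offsets and the block AKR1C3 (1.00, adjusted p = 0.0438) and CBR3 (-0.38, adjusted p = 0.0128) passed with doxorubicin in deleted cells and POR passed between treated groups (-0.23, adjusted p = 0.0109) and in the difference (-0.32, adjusted p = 0.0291), and that without the 2 libraries of highest mitochondrial share AKR1C3 passed in deleted cells (1.37, adjusted p = 0.0126) and in the difference (1.52, adjusted p = 0.0307). The cause was not tested.

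Signs turned only for values that did not pass, each at most 0.15 from 0 before the change. Without the 2 libraries of highest mitochondrial share, CBR1 was at 0.08, AKR1A1 at 0.08 and NQO1 at 0.07 in intact cells with doxorubicin, NQO1 at -0.03 in deleted cells, POR at 0.07 in DMSO, CBR1 at -0.05 between treated groups, and AKR1A1 at -0.33 and NQO1 at -0.10 in the difference. With GC offsets, with or without the block, POR was at 0.09 in DMSO and AKR1A1 at -0.06 in the difference. With a library left out the ranges in intact cells were -0.16 to 0.08 for CBR1, -0.31 to 0.00 for CBR3, -0.25 to 0.08 for AKR1A1, -0.10 to 0.07 for NQO1 and -0.01 to 0.21 for POR. In deleted cells they were -0.26 to 0.06 for AKR1A1, -0.04 to 0.08 for NQO1 and -0.18 to 0.06 for POR. In DMSO they were -0.20 to 0.50 for AKR1B10, -0.12 to 0.09 for POR and -0.09 to 0.05 for XDH. Between treated groups CBR1 ran from -0.05 to 0.19, and in the difference CBR3 from -0.27 to 0.04, AKR1A1 from -0.17 to 0.19 and NQO1 from -0.04 to 0.13.

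Over all genes 13 were called in intact cells with doxorubicin, 46.2% of them higher, against 467 with DESeq2, 420 with GC offsets, 48 with library totals (14.6% higher), 0 with the block or only the groups compared, and 0 to 220 with a library left out. In the difference of effects 71.3% of calls were higher with library totals, against 60.3%. With doxorubicin in deleted cells the electron-donating reductases had 1 higher with library totals and 4 with GC offsets, other NRF2 targets 2 higher with library totals or DESeq2 and 2 higher and 4 lower without the 2 libraries of highest mitochondrial share, superoxide and peroxide enzymes 1 higher with DESeq2, GC offsets or without those libraries, and purine and cofactor genes 2 lower without them. In DMSO NRF2 regulators had 1 lower with RLE factors or library totals and 2 with DESeq2, GC offsets or without those libraries, electron-donating reductases 1 higher with RLE factors, superoxide and peroxide enzymes 2 lower with GC offsets, the carbonyl reducers 2 lower with DESeq2, and purine and cofactor genes 1 higher without those libraries. AKR1C1 could not be tested at 1 CPM in 3 libraries, and AKR1C2 was tested only with no filter (adjusted p = 0.432 with doxorubicin in deleted cells). With 0 to 16 counts a library for AKR1C2, AKR1C3 in deleted DMSO cells and AKR1C1 there, depth limits what can be seen.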

Other observations

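Genes around XDH in purine metabolism and genes of the molybdenum cofactor, which XDH needs, were measured too. Of 10 such genes 9 were tested. In deleted cells with doxorubicin 2 rose and 1 fell, with a median log2 fold change of 0.00, near the 17.5% higher and 13.1% lower over all genes. MOCOS, the sulfurase that completes the cofactor of XDH and aldehyde oxidase, rose from 25.3 ± 2.53 to 36.2 ± 2.3 CPM (0.48, SE 0.10, adjusted p = 0.00233 by edgeR) and PNP, purine nucleoside phosphorylase, from 73 ± 11.3 to 94.1 ± 1.74 CPM (0.33, SE 0.10), while GPHN, gephyrin, fell by 0.32 (SE 0.08). HPRT1, the purine salvage enzyme, was at -0.01, SE 0.08. In DMSO 3 were higher and 2 lower, beside 18.8% and 16.2% of all genes: deleted cells had more MOCOS (0.95, SE 0.10), MOCS2 (0.42, SE 0.14) and GPHN (0.24, SE 0.08) and less ADA, adenosine deaminase (-0.61, SE 0.12), and APRT (-0.90, SE 0.28). PNP, and MOCS2, GPHN and APRT in DMSO, were named after their values were seen.

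Of 8 enzymes of superoxide and peroxide handling 5 were tested; 1 was higher and 1 lower in deleted DMSO cells, and 0 rose and 1 fell with doxorubicin in deleted cells, beside the same shares of all genes. CAT, catalase, was lower in deleted than intact DMSO cells (-0.27, SE 0.08) and fell in deleted cells with doxorubicin from 48.2 ± 1.52 to 40.4 ± 1.64 CPM (-0.29, SE 0.08, adjusted p = 0.0111 by edgeR). SOD1, a superoxide dismutase gene that lies on chromosome 21 as CBR1 and CBR3 do, was at 133 ± 8.54 CPM in intact and 256 ± 59.3 CPM in deleted DMSO cells (0.99, SE 0.18), and at 250 ± 38.8 CPM in deleted cells with doxorubicin (-0.09, SE 0.18). SOD2, named after its value was seen, was at 0.07, SE 0.08 with doxorubicin.

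Near the AKR1C genes, of 15 tested genes that start within 1 Mb 5 rose and 4 fell in deleted cells with doxorubicin, with a median of 0.17, where 173 rose and 117 fell among 834 tested genes of chromosome 10 and 30.7% of all genes were called. The noncoding genes MANCR (3.76, SE 0.34) and LINC00705 (3.89, SE 0.58) had the lowest p. In deleted cells MANCR went from 0.143 CPM in DMSO to 1.99 CPM in doxorubicin, and LINC00705 from 0.0331 to 0.507 CPM. Each was nearly silent in DMSO. Near AKR1B10, of 13 such genes 4 rose and 1 fell, with a median of 0.16, where 161 rose and 128 fell among 1017 tested genes of chromosome 7. TMEM140 rose by 2.80 (SE 0.39) from a low level, 0.139 to 0.991 CPM. BPGM fell by 0.68 (SE 0.10), from 17.3 to 11.1 CPM.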
